A study of Mus musculus with 6 samples.

Results

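Sphingosine 1-phosphate (S1P) is a lipid messenger made inside cells and sensed at the cell surface, and 8 genes of its synthesis, export, sensing and removal are described here in cultured mouse astrocytes. They are Sphk1 and Sphk2 (the sphingosine kinases), Spns2 (the S1P exporter), S1pr1, S1pr2 and S1pr3 (receptors), and Sgpp1 and Sgpl1 (removal enzymes). The members were chosen by their place in this pathway, with the normalized counts of the same cultures already known, so their differences between groups are given as a description and without p-values. All 8 were found among the 55357 genes of the deposited table, and all 8 were among the 15280 genes tested.

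RNA-seq was performed on primary astrocytes from the cortices of C57BL/6 mouse embryos at embryonic day 18. In 3 cultures (KE), the cells carried a plasmid for FLAG-tagged BRAF with the RASopathy-associated K499E change under the CMV promoter, which is not restricted to astrocytes, and RNA was collected at 48 hours. The 3 cultures of the comparison group (NT) were cells that received no transfection. The transfection procedure, the plasmid, a raised BRAF level and the K499E change therefore cannot be told apart in any difference between the groups. The sources do not say whether the 3 cultures of a group came from separate dissections, and the spread between them may therefore be technical. Normalized counts of Braf were 34933 to 40978 in KE and 811 to 946 in NT, which matched the group names, although the protocol text of the sample records mentions the plasmid for all 6 samples. Approximate depth was 24500000 to 34100000 reads per culture, lowest in KE replicate 2.

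S1P is formed when a sphingosine kinase phosphorylates sphingosine, which is itself released from ceramide. The product either leaves the cell through a transporter and binds G protein–coupled receptors of the S1PR family, or is removed inside the cell. Removal takes 2 routes: phosphatases return S1P to sphingosine, and S1P lyase cleaves it irreversibly. Astrocytes are known to express S1P receptors, and SPHK1 is an enzyme whose activity increases after phosphorylation by ERK, the kinase downstream of BRAF. Sphk1 and S1pr3 are also commonly listed among genes induced in reactive astrocytes.

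Promoter sequence was examined first for motifs of transcription factors downstream of ERK and of basal transcription. RefSeq start sites (GRCm38.p6 table) were available for 7 of the 8 genes, with 12 windows in all, and the 250 bases before each start were placed on GRCm39 by exact match. On either strand, the AP-1 motif TGANTCA was present in 1 of the 7 genes and in 7.82% of all 27025 genes with a window. The cAMP response element TGACGTCA was also present in 1 of the 7 and in 1.77% of all genes, and the TATA motif TATAAA in 1 of the 7 and in 14.3%. The EGR motif GCGTGGGCG, the ETS motif CCGGAAGT and the CArG box were in none of the 12 windows, against 0.622%, 3.23% and 1.62% of all genes. Shares per gene are not matched for the number of windows, 12 for the 7 genes and 32851 for all 27025. Per window, TGANTCA was in 6.75%, TGACGTCA in 1.55% and TATAAA in 12.4% of all windows. TGANTCA has no match inside TGACGTCA, whereas a CArG box can contain TATAAA. Sphk1, with 5 annotated windows, held a TATAAA beginning 31 bases before its first start and a TGAGTCA beginning 50 bases before the second. Windows 2 and 3 overlap, so the same TGAGTCA also lies 124 bases before the start of window 3. Because these windows overlap exons of other Sphk1 transcripts, only 30 bases around each motif are shown, the motif in capitals. They lie on the plus strand of GRCm39 at chr11:116421883-116421912 and chr11:116422602-116422631.

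Sphk1 TATA stretch: ctgaggcccaagTATAAAatgtcctgcagg

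Sphk1 AP-1 stretch: gagcgtgtcgcTGAGTCAccttctcggaag

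S1pr2 and S1pr3 are shown because the difference between KE and NT had opposite signs in these receptors. The S1pr2 window (minus strand, GRCm39 chr9:20888090-20888339) held TGACGTCA, in capitals, starting 181 bases before the start site. The S1pr3 window (plus strand, GRCm39 chr13:51562404-51562653) held none of the motifs searched. These matches are descriptions of letters, and no binding was measured.

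S1pr2 upstream: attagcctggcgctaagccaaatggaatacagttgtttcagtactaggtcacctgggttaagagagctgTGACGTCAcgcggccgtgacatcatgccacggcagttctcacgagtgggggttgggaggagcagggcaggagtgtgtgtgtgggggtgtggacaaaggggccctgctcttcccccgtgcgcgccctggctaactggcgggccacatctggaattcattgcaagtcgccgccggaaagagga

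S1pr3 upstream: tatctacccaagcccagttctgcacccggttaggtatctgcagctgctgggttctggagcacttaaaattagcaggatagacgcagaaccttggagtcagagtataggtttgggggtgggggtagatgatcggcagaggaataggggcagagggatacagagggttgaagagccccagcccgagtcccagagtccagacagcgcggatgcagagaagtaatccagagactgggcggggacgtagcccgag

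Among the kinases, Sphk1 stood well above its NT level in KE and Sphk2 did not. Sphk1 (ENSMUSG00000061878, plus strand, GRCm39 chr11:116421751-116427501) encodes the mainly cytosolic kinase. Its normalized counts were 694, 733 and 732 in KE replicates 1, 2 and 3, and 145, 151 and 153 in NT replicates 1, 2 and 3. Every KE value was above every NT value, and within each group the 3 cultures lay close together. The KE mean was 719.6 ± 22.3 (SD, n = 3) and the NT mean 149.7 ± 4.51 (SD, n = 3). Their log2FC was 2.26 with a standard error of 0.09, or 4.78-fold. The log2FC here is the KE minus NT difference of log2(normalized count + 1) from limma. Only 3.47% of tested genes had a larger absolute log2FC than Sphk1. Sphk2 (ENSMUSG00000057342, minus strand, GRCm39 chr7:45358891-45367426), which encodes the kinase found in nucleus and mitochondria as well, had 947, 1207 and 942 normalized counts in KE and 864, 984 and 902 in NT. These ranges overlapped, and the highest value was that of KE replicate 2, the least deeply sequenced culture. The log2FC of Sphk2 was 0.16 with a standard error of 0.10, and it was 0.045 without KE replicate 2.

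Because the kinases differ in transcript length, their levels were compared per kilobase of the canonical Gencode transcript. On that scale Sphk1 made up 13.3% ± 0.597 (SD, n = 3) of the summed kinase level in NT, against 39.8% ± 3.06 (SD, n = 3) under KE. The ratio of Sphk1 to Sphk2 per kilobase was 0.157, 0.145 and 0.159 in the NT cultures and 0.689, 0.571 and 0.731 in the KE cultures. Sphk2 thus stayed the higher of the pair in all 6 cultures on this scale. With the merged exons of each gene as its length, the share of Sphk1 was 17.1% to 18.5% in the NT cultures and 44.9% to 51.1% in the KE cultures, and in KE replicate 3 Sphk1 exceeded Sphk2.

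**Figure D1:**
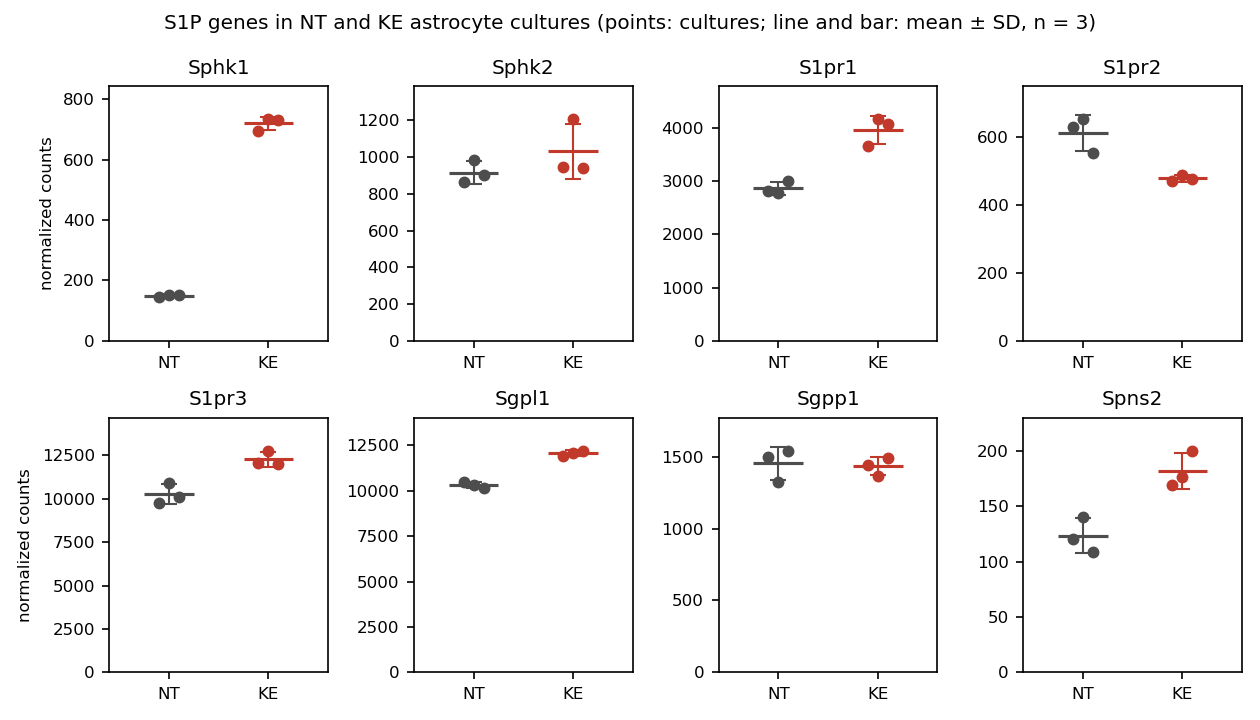
Normalized counts (linear axis from 0, a scale per gene) of the 8 S1P genes in the 3 NT (gray) and 3 KE (red) cultures, each point a culture, with the mean as a line and the SD as a bar. Sphk1 was 145 to 153 in NT and 694 to 733 in KE, S1pr2 was lower in KE, and the groups overlapped for Sphk2 and Sgpp1.

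Export was represented by Spns2, the transporter that releases S1P from endothelial and other cells. Spns2 (ENSMUSG00000040447, minus strand, GRCm39 chr11:72342463-72380840) had 169, 176 and 199.9 normalized counts in KE and 121, 141 and 109 in NT. The groups did not overlap, but the cultures of each group were spread more widely than for Sphk1. The log2FC was 0.56 with a standard error of 0.15, second in size to that of Sphk1 among the 8 genes. The mean was 181.6 ± 16.3 (SD, n = 3) under KE, and 123.3 ± 16.0 (SD, n = 3) in NT.

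The receptors S1pr1 and S1pr3 were higher in KE and S1pr2 was lower. S1pr1 (ENSMUSG00000045092, minus strand, GRCm39 chr3:115504071-115508721) encodes a receptor that couples to Gi. Its normalized counts were 3655, 4156 and 4061 in KE and 2807, 2771 and 2999 in NT. All 3 KE values lay above the NT values, and the log2FC was 0.47 with a standard error of 0.07. S1pr3 (ENSMUSG00000067586, plus strand, GRCm39 chr13:51561702-51576833), whose product couples to Gi, Gq and G12/13, had 12071, 12768 and 12000 normalized counts in KE and 9780, 10899 and 10088 in NT. The gap between the groups was small, from 10899 in NT replicate 2 to 12000 in KE replicate 3, and the log2FC was 0.26 with a standard error of 0.06. S1pr2 (ENSMUSG00000043895, minus strand, GRCm39 chr9:20873657-20914139), which encodes a receptor coupled mainly to G12/13, had 470, 489 and 477 normalized counts in KE and 631, 653 and 553 in NT. Each KE culture was below each NT culture, with NT replicate 3 the nearest, and the log2FC was -0.35 with a standard error of 0.09.

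Per kilobase, S1pr3 and S1pr1 accounted for nearly all receptor transcripts in both groups. S1pr3 made up 68.9% ± 1.56 (SD, n = 3) of the summed level of S1pr1 to S1pr5 in NT and 66.7% ± 1.19 (SD, n = 3) in KE. For S1pr1 the shares were 28.2% ± 1.66 (SD, n = 3) in NT and 31.5% ± 1.21 (SD, n = 3) in KE. The S1pr2 share was 2.87% ± 0.247 (SD, n = 3) in NT and 1.82% ± 0.036 (SD, n = 3) in KE. The S1pr1 to S1pr2 ratio per kilobase was accordingly 9.34, 8.91 and 11.4 in the NT cultures and 16.3, 17.8 and 17.9 in the KE cultures. S1pr4, a receptor of lymphoid cells, and S1pr5, a receptor of oligodendrocytes and natural killer cells, were near the lower end of detection. Their highest normalized counts in any culture were 8.58 and 4.52, and neither passed the filter on low genes.

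Of the removal enzymes, the lyase was slightly higher in KE and the phosphatase was at a similar level in both groups. Sgpl1 (ENSMUSG00000020097, minus strand, GRCm39 chr10:60934421-61011826), which encodes S1P lyase, had 11901, 12092 and 12199 normalized counts in KE and 10493, 10324 and 10170 in NT. Its cultures were the least variable of the 8 genes, and the groups did not overlap although the log2FC was only 0.22, with a standard error of 0.05. Sgpp1 (ENSMUSG00000021054, minus strand, GRCm39 chr12:75761023-75782605), which encodes an S1P phosphatase, had 1443, 1365 and 1491 normalized counts in KE and 1495, 1322 and 1541 in NT. The ranges overlapped throughout, and the log2FC was -0.02 with a standard error of 0.07. Its paralog Sgpp2 was at 1.81 normalized counts at most.

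Over the 8 genes, 5 were called higher in KE (Sphk1, Spns2, S1pr1, S1pr3 and Sgpl1), 1 was called lower (S1pr2) and 2 were not called (Sphk2 and Sgpp1). A call is an adjusted p-value under 0.05 in limma after Benjamini-Hochberg adjustment over all tested genes. In that comparison 51.3% of all tested genes were called, 25.3% as higher and 26.0% as lower in KE. No overlap between the groups was found for 6 of the 8 genes and for 59.9% of all tested genes. The median log2FC was 0.24 over the 8 genes and 0.002 over all tested genes, and the median absolute log2FC was 0.31 and 0.30. Apart from Sphk1, the absolute log2FC of each of the 8 was exceeded by between 26.6% (Spns2) and 96.5% (Sgpp1) of tested genes. Since the genes were taken up with these values known, nothing is read from the counts.

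**Figure D2:**
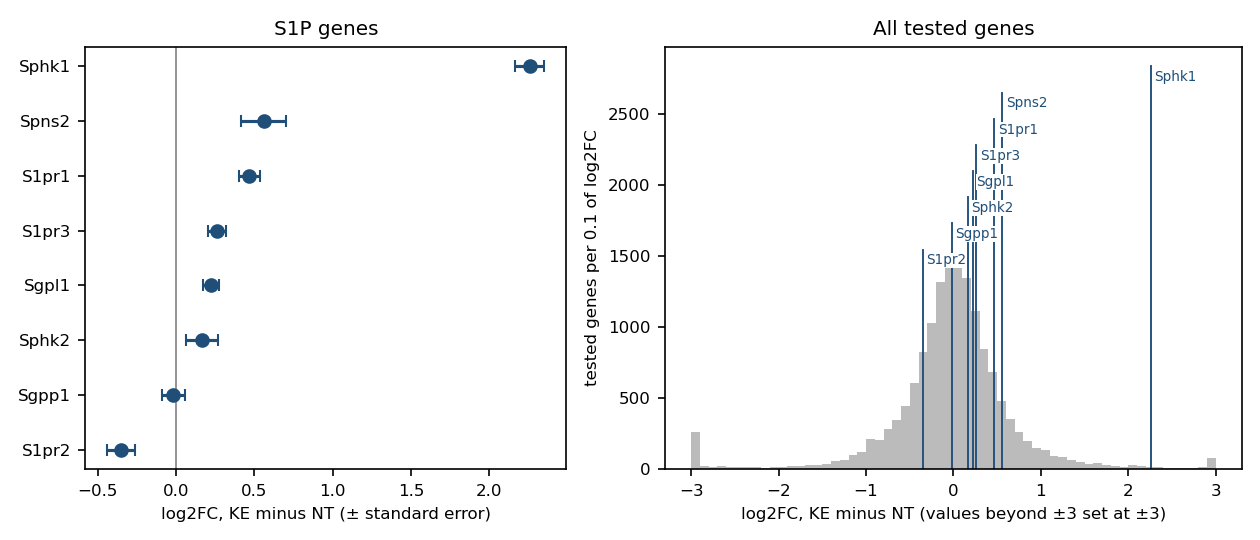
Left, log2FC between KE and NT (log2 of normalized count + 1) with its standard error for the 8 S1P genes. Right, the number of tested genes per 0.1 of log2FC, with the 8 genes as vertical lines: Sphk1 at 2.26 lies in the upper tail, and the others lie between -0.35 and 0.56.

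The order of transcript levels per kilobase in NT was Sgpl1, S1pr3, S1pr1, Sgpp1, Sphk2, S1pr2, Sphk1 and Spns2. Mean levels ran from 2501 ± 39.1 (SD, n = 3) normalized counts per kilobase for Sgpl1 to 36.2 ± 4.69 (SD, n = 3) for Spns2. Sphk1 and Spns2 did not differ beyond their spread in NT, with ranges of 38.3 to 40.5 and 31.9 to 41.2 per kilobase. Sgpl1 and S1pr3 came close, at 2463 to 2541 and 2191 to 2442, and their order turned when merged exons served as the length. In KE, Sphk1 passed S1pr2, at 191 ± 5.92 (SD, n = 3) against 74.9 ± 1.48 (SD, n = 3) normalized counts per kilobase, and the order of the other genes was as in NT. Sphk1 also lay above S1pr2 in KE on the merged-exon length, at 129.7 against 47.1.

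**Figure D3:**
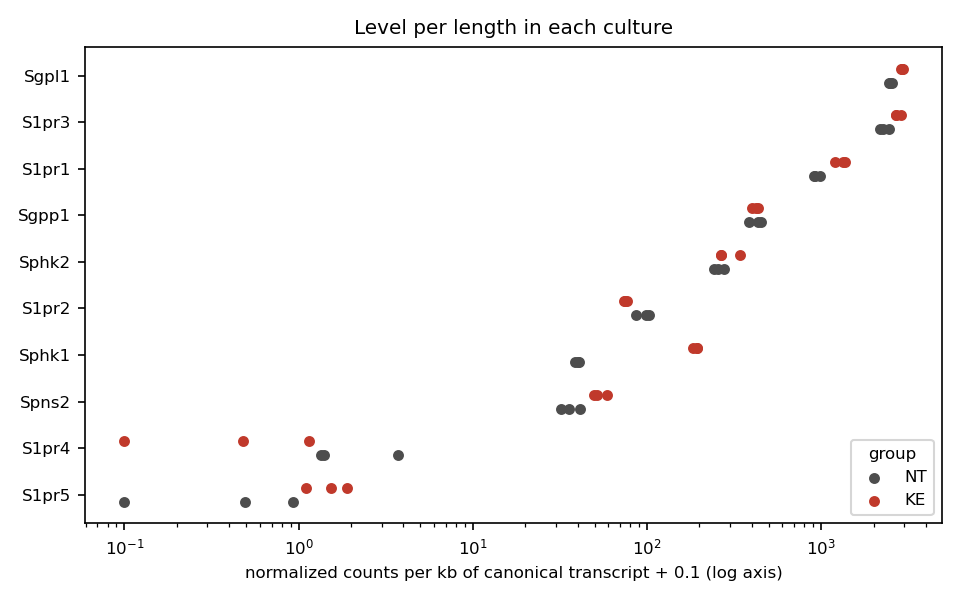
Normalized counts per kilobase of the canonical transcript (log axis, 0.1 added so that values of 0 can be drawn) for the 8 S1P genes and the receptors S1pr4 and S1pr5, 1 point per culture, NT in gray and KE in red. Sphk1 moved from beside Spns2 in NT to above S1pr2 in KE, and S1pr4 and S1pr5 lay far below the other receptors.

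The genes closest to Sphk1 in pattern were found as the smallest root mean square distance between mean-centered log2 values over the 6 cultures, among 12071 genes with a mean of at least 100. They were Ppp1r15a (distance 0.05, log2FC 2.22), Ifi211 (0.11, 2.19), H2-Q4 (0.12, 2.19), Gem (0.12, 2.03) and Nqo1 (0.12, 2.10). H2-Q4 and Ifi211 belong to families of similar genes that can share reads. For S1pr2 the closest were Ctsa, Pde2a, Tada1, Nsun2 and Frmd4b, at distances of 0.015 to 0.042 and log2FC between -0.40 and -0.31. The 6 cultures form 2 groups, so the distance is set largely by the difference between KE and NT.

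Other genes of S1P handling were compared as a list of 10 outside the 8, of which 5 passed the filter on low genes. This list and the gene lists below were also chosen with earlier results of these data known. Their adjusted p-values and counts are therefore a description and not an independent test. Upregulation in KE was found for 4 of these 5 and downregulation for none, with a list median log2FC of 0.72. Over all tested genes, 25.3% were called higher and 26.0% lower. The remaining gene, Plpp2, had a log2FC of 0.32 (adjusted p = 0.0534 from limma) although its KE values, 265 to 329, lay above those of NT, 212 to 256. Plpp2 was called, making 5 of 5, with a mean of at least 50, with quantile normalization, with the replicate number as a block and without NT replicate 2. It was not called under the rest of the 14 alternatives. Plpp1 and Plpp3 encode lipid phosphate phosphatases that dephosphorylate S1P and lysophosphatidic acid at the outer cell surface. Plpp1 rose from 1347 ± 81.0 (SD, n = 3) normalized counts in NT to 2924 ± 31.4 (SD, n = 3), and its log2FC was 1.12 ± 0.06 (SE; limma adjusted p = 1.35e-07). Plpp3, the most abundant gene of the list, rose from 12461 ± 185 (SD, n = 3) to 21761 ± 1016 (SD, n = 3), and its log2FC was 0.80 ± 0.06 (SE; limma adjusted p = 6.45e-07). Aldh3a2, which oxidizes the fatty aldehyde that S1P lyase releases, had a log2FC of 0.72 (adjusted p = 2.93e-06 from limma). Cib1, whose product binds SPHK1 and brings it to the membrane, had a smaller log2FC of 0.24 (adjusted p = 0.0109 from limma). The other S1P transporter Mfsd2b and the S1P carrier Apom were below 15 normalized counts in every culture and were not tested, like S1pr4, S1pr5 and Sgpp2.

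Of 12 listed enzymes that release ceramide from sphingomyelin or glycosphingolipids, or sphingosine from ceramide, 11 were tested, and 6 of these were not called. Upregulation was found for 3 and downregulation for 2, so 45.5% of the tested genes of the list were called, against 51.3% of all tested genes. The list median log2FC was 0.13. The upregulated genes included Asah2, the neutral ceramidase, with a log2FC of 0.78 (adjusted p = 1.65e-04 from limma). They also included Smpd1, the acid sphingomyelinase, with a log2FC of 0.58 (adjusted p = 3.04e-05 from limma). Smpd3, neutral sphingomyelinase 2, and Galc, the galactosylceramidase, fell, with log2FC of -0.85 and -0.57 (adjusted p = 0.00332 and 7.30e-05 from limma). The most abundant ceramidase gene, Asah1, was 6650 to 7464 normalized counts in KE and 6191 to 6941 in NT (log2FC 0.13, adjusted p = 0.124 from limma). Acer1 was listed at 0 in all 6 cultures.

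Ceramide synthesis from serine and fatty acids was represented by 15 genes. Of the 13 tested, 6 were upregulated, 1 was downregulated and 6 were not called, with a median log2FC of 0.27. The share called, 53.8%, was near the 51.3% of all tested genes. The ceramide synthase genes Cers6, Cers1 and Cers2 rose by 0.79, 0.52 and 0.39 (adjusted p = 1.83e-06, 0.00121 and 1.13e-04 from limma). Ormdl3, which encodes a brake on serine palmitoyltransferase, rose by 0.73 (adjusted p = 3.83e-06 from limma). Sptlc2, a catalytic subunit of that enzyme, rose by 0.41 and Kdsr, the next enzyme of the route, by 0.40 (adjusted p = 0.00157 and 0.00339 from limma). The downregulated gene was Sptssa, a small subunit of serine palmitoyltransferase (log2FC -0.33, adjusted p = 0.00409 from limma). Degs2 was listed at 0 in all 6 cultures.

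Enzymes that use ceramide formed 10 genes, all tested, of which 2 were upregulated, 6 downregulated and 2 not called, with a median log2FC of -0.29. The list had 80% called, beside 51.3% of all tested genes (26.0% lower). The upregulated pair, Sgms2 and Sgms1, encodes sphingomyelin synthases (log2FC 0.70 and 0.30, adjusted p = 8.94e-04 and 0.0123 from limma). The downregulated genes included Ugt8a, the galactosylceramide synthase of myelinating cells (log2FC -1.30, adjusted p = 1.25e-04 from limma). They also included Ugcg, St3gal5 and B4galt5 of glucosylceramide and ganglioside synthesis (log2FC -0.39, -0.55 and -0.37, adjusted p = 0.00229, 2.30e-04 and 0.00864 from limma). Markers of the oligodendrocyte lineage were lower in KE as well, with 6 of 7 tested called lower and a summed level of 12196 to 12708 normalized counts in NT and 7650 to 9024 in KE. Olig2 made up most of that sum, at 8555 to 9419 in NT and 5576 to 6701 in KE. The part of oligodendrocyte lineage cells in the Ugt8a and Galc differences was not tested. In bulk samples fewer cells of a type cannot be told apart from less RNA per cell.

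**Figure D4:**
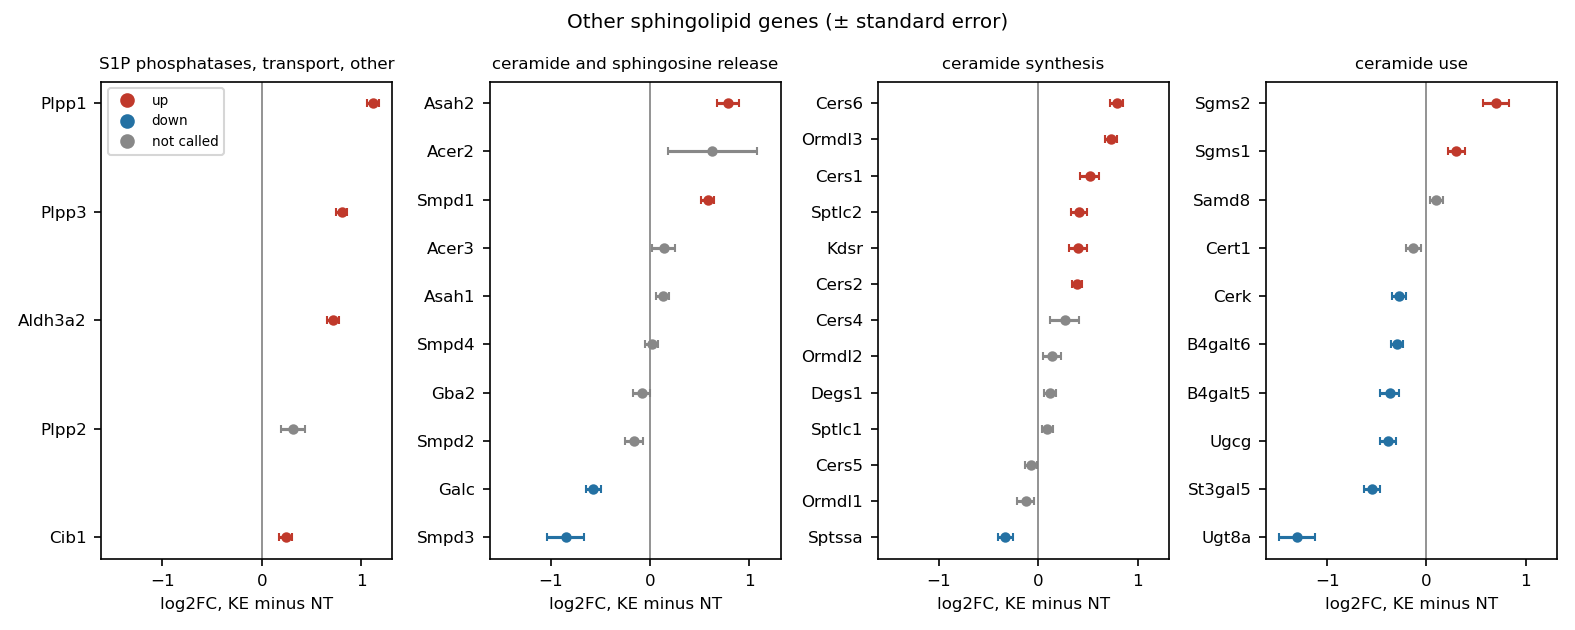
Log2FC between KE and NT with its standard error for tested genes of the S1P handling list and 3 ceramide lists (10 of the 11 tested are drawn in the panel of ceramide and sphingosine release), colored by the limma call at an adjusted p-value under 0.05 (red higher, blue lower, gray not called). In the S1P handling panel all 5 genes lie right of 0, and in the ceramide use panel 6 of 10 are called lower.

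Of 12 genes for the G proteins of S1P receptors and regulators of receptor signaling, 3 were upregulated, 6 downregulated and 3 not called, with a median log2FC of -0.17. The list had 75% called, beside 51.3% of all tested genes. Rgs16, a GTPase-activating regulator of Gi and Gq, rose by a log2FC of 0.86 (adjusted p = 1.89e-07 from limma), and Gna13, the G13 subunit, by 0.37 (adjusted p = 1.31e-04). The arrestin genes Arrb2 and Arrb1, whose products uncouple and internalize receptors, fell, with log2FC of -1.34 and -0.90 (adjusted p = 3.24e-06 and 1.29e-06 from limma). Gnai1, the least abundant of the Gi subunit genes listed (mean 1247 normalized counts in NT and 708 in KE), had a log2FC of -0.82 (adjusted p = 2.57e-05 from limma). Gnai2, the most abundant (mean 18010 in NT and 20243 in KE), was called higher, although the groups overlapped (log2FC 0.17, adjusted p = 0.0433 from limma). Gnai3 (mean 6036 in NT and 5331 in KE) was called lower (log2FC -0.18, adjusted p = 0.0237 from limma). The largest fall was that of Cd69, a leukocyte protein that takes S1PR1 off the cell surface (log2FC -3.48, adjusted p = 6.29e-07 from limma). Its normalized counts were 27.1, 32.5 and 33.5 in KE and 425, 451 and 231 in NT. Microglia and macrophage markers fell in the same cultures, with 10 of 10 called lower and a summed level of 27269 to 31519 normalized counts in NT and 2312 to 3642 in KE. Their part in the lower Cd69, Arrb2 and S1pr2 values was not tested.

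The related lipid lysophosphatidic acid, which acts through its own receptors, gave 1 upregulated, 3 downregulated and 2 not called of 6 tested genes, or 66.7% called beside 51.3% of all tested genes. Lpar1 rose by a log2FC of 0.64 (adjusted p = 0.00435 from limma). Lpar5 and Lpar6 fell, with log2FC of -2.55 and -0.66 (adjusted p = 9.97e-05 and 1.16e-04 from limma). Lpar5 is known from microglia, and its highest normalized count was 43.3 in NT and 7.94 in KE. Its KE values were all below the minimum mean of 10, so it passed that filter through NT, and it was also called with no filter on low genes. Enpp2, which encodes the enzyme that makes lysophosphatidic acid, had a log2FC of -0.50 (adjusted p = 0.0378 from limma, and 0.0524 to 0.134 under 8 of 14 alternatives).

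The labeled cell type was checked by 8 astrocyte markers, all tested, of which 5 were called higher in KE, 1 lower and 2 not called. The marker counts of this paragraph stand beside 51.3% called, 25.3% higher and 26.0% lower, over all tested genes, and the endothelial and neuronal lists, with 50% of tested markers called in each, lay near that share. The summed level of the astrocyte markers was 97487 to 102730 normalized counts in NT and 135660 to 137630 in KE. Gja1, the gap junction gene, was the marker called lower, at 5646 to 6479 normalized counts in NT and 4201 to 4548 in KE (log2FC -0.46, adjusted p = 1.39e-04 from limma). Aqp4 and S100b were not called, and S100b was low in both groups, at 11.8 to 31.5. Endothelial cells, in which S1pr1 and Spns2 are known to be active, were represented by 8 markers, of which 4 were tested, 0 were called higher and 2 lower. The markers summed to 378 to 551 normalized counts in NT and 300 to 379 in KE. Flt1 made up most of the sum, at 273 to 428 and 197 to 246. Pecam1 was the other marker called lower (log2FC -0.86), and Kdr was not called (log2FC -0.49). Egfl7 lay higher in KE, at 60.2 to 74.5 against 40.1 to 55.3 in NT. Its log2FC was 0.54, without a call (adjusted p = 0.0505 from limma). Tek and Emcn, below the filter, had higher means in KE (9.71 and 2.75) than in NT (5.11 and 0.87). Cldn5 was listed at 0 in 5 of the 6 cultures and at 2.07 in the other, and Cdh5 was 5.94 at most. The part of endothelial cells in the S1pr1 and Spns2 values was not tested. Of 8 fibroblast and mural cell markers, all tested, 3 were called higher (Rgs5, Col1a2 and Lum), 3 lower (Acta2, Dcn and Col3a1) and 2 were not called. They summed to 3602 to 4708 normalized counts in NT and 3118 to 3251 in KE. Acta2, the smooth muscle actin gene, had the largest difference in this list, at 1174 to 2074 in NT and 632 to 679 in KE. Of 6 neuronal markers tested, 1 was called higher (Tubb3) and 2 lower (Map2 and Stmn2), and the sum, mostly Map2, was 8737 to 9395 in NT and 6704 to 7116 in KE.

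Reads of the 8 genes were mostly unique in sequence. Between 0.0126% (Sphk2) and 1.97% (Sphk1) of the 31-base words of their Gencode transcripts also occurred in transcripts of other genes. No exon of the 8 overlapped another gene on the same strand, while 7 of them shared 50 to 2299 exon bases with a gene on the opposite strand. The longest such overlap was that of Sphk2 with Rpl18, a ribosomal protein gene at 7386 to 9980 normalized counts (log2FC -0.27). Sphk2 also shared 539 exon bases with Dbp, which was at 332 to 387 normalized counts in NT and 727 to 803 in KE (log2FC 1.08, adjusted p = 2.81e-06 from limma). The library kit keeps strand, but the use of strand in counting is not given in the sources used here, so opposite-strand reads cannot be told apart with certainty for these 7 genes. Among the lower ones, Sphk1 shared 192 exon bases with the antisense gene Sphkos, whose level was not analysed here. Spns2 shared 134 exon bases with Mybbp1a, at 6051 to 7988 normalized counts, and S1pr2 shared 122 with Mrpl4, at 1135 to 1325.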

How the data were processed

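The 3 KE and 3 NT cultures were grouped by the sample titles. Stranded mRNA libraries were made, and per the labels the authors used Trim Galore, STAR, Salmon and DESeq2. For mouse samples the methods name GRCm39 with Gencode, while the labels name GRCh38. The authors deposited a normalized signal, gene counts divided by size factors, which removes depth and is not whole numbers. Whole reads could not be recovered (74.6% to 77.5% of low values came within 0.1 of a multiple of 1 read, and 95% was required), so no count test was run and counting error is not known per value. Approximate depth is the column total over the most frequent low value.

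limma 3.58.1 (R 4.3.3) was run on log2(normalized count + 1) with group as the only factor and its trend option on, after genes averaging under 10 were removed. Log2FC on this scale understates changes of low genes. P-values are two-sided and Benjamini-Hochberg adjusted over all 15280 tested genes. The fit was tested on simulated data. The members and the gene lists were chosen with earlier results of these data known. Named genes were the members, up to 6 called genes per list by absolute log2FC, genes at 0 in all cultures, the nearest genes in pattern, and defining markers. Plpp2, Asah1 and other uncalled or low genes were named after their values were seen, as were the called genes Sptssa, Gnai2 and Gnai3. 1 gene of the list of ceramide and sphingosine release counts in that list and is not reported here by name. Lengths and coordinates came from Gencode vM39 on GRCm39. Alternatives were other pseudocounts (0.5 and 5), filters, scalings, no variance trend, the replicate number as a block, and leaving out each culture.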

Additional observations from a re-analysis of the deposited data

How the results depend on the processing

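In 951 checks of a result against an alternative, 927 left its direction and call in place or, for counts, stayed within 1.5 times. The calls of all 8 S1P genes were the same under all 14 alternatives. Direction changed for Sgpp1, which was not called under any: its log2FC of -0.02 became 0.016 without KE replicate 2, 0.004 without NT replicate 1 and 0.026 without NT replicate 3, within a range of -0.084 to 0.026 when each culture was left out. The log2FC of Sphk1 ran from 2.23 to 2.35 over the alternatives, that of Spns2 from 0.47 to 0.69, and that of Sphk2 from 0.045 (without KE replicate 2) to 0.223. Endothelial markers called higher numbered 1 instead of 0 with a pseudocount of 5, quantile normalization, limma without trend or the replicate block, and 0 to 1 when each culture was left out (1 without NT replicate 3). Those called lower numbered 1 instead of 2 with a mean of at least 50, and 1 to 2 when each culture was left out (1 without NT replicate 1 and without NT replicate 2). Neuronal markers called higher numbered 2 instead of 1 with quantile normalization or limma without trend, and 1 to 2 when each culture was left out (2 without KE replicate 1). Mesenchymal markers called higher numbered 1 instead of 3 with limma without trend, and 1 to 2 when each culture was left out (1 without KE replicate 3). The causes were not tested. Same-numbered cultures deviated together only weakly (r = 0.059, 0.066 and 0.065), so the numbers were not taken as pairing, although each KE culture correlated best with its own number. With the replicate block, 8046 genes were called against 7844. Enpp2 lost its call under 8 alternatives. S1pr4 and S1pr5 were left out by the filter on low genes, and without that filter the other S1P genes called were again 4 higher and 0 lower. They were 5 higher with a mean of at least 50, quantile normalization or the replicate block, and 4 to 5 when each culture was left out (5 without NT replicate 2).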
